A study of Homo sapiens with 54 samples.

Results

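The 12 control libraries of the study are described here, out of 53 libraries with a processed table and 54 samples in the labels. They were chosen by name alone, as the libraries labelled hMSNs-1mM-PBS, hMSNs-1uM-PBS, hMSNs-1mM-ChAACtrl and hMSNs-water-agonist, with replicates r1 to r3 each, and no measured value entered the choice. All are bulk RNA-seq of cultures that were differentiated with an Activin A protocol from H9 (WA09), an established human embryonic stem cell line, into what the study calls hMSN-like cells, and none received dopamine or an agonist. The study used each set as the baseline of another experiment.

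The set called 1mM-PBS below held the PBS (phosphate-buffered saline) wells of the experiment with 1 mM dopamine, and 1uM-PBS those of the experiment with 1 µM dopamine. The set called AA held wells labelled as a chronic ascorbic acid control (ascorbic acid is an antioxidant added with dopamine) and served a time course of daily 1 mM dopamine. The set called water held the water wells of the experiment with receptor agonists. All 4 sets share the cell line and the protocol. For acute dosing part of the medium was exchanged, and for chronic dosing all of it was removed and replaced. The study collected the time course, which AA served, at a later day in culture than the agonist experiment, which water served. The day of the PBS wells, and how each control set was otherwise handled, is not given in the sources used here. Vehicle, experiment, differentiation, time in culture and sequencing provider therefore cannot be told apart, and every difference below is a difference between sets, never an effect of a vehicle. Nothing in the labels says that the replicates came from separate differentiations, so p-values measure only the spread between these wells.

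Medium spiny neurons are the GABA-releasing projection neurons of the striatum. They arise from progenitors of the lateral ganglionic eminence, carry dopamine receptors and the phosphoprotein DARPP-32 (gene PPP1R1B), and fall into a class with the receptor DRD1 and the peptides of TAC1 and PDYN and a class with DRD2, PENK and ADORA2A. Immediate early genes, such as FOS and EGR1, are transcribed within minutes of synaptic input, growth factors or stress, before new protein is made, and serve as markers of recent activity.

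The libraries held 12503763 to 22152347 gene reads each, 9584706 to 17320571 of them on exons. The authors' TPM, a level per exon length with the same total in every library, is given throughout, so it may be compared between genes. A count of 3 exon reads on a gene with 2000 bases of exon corresponded to 0.364 to 0.604 TPM, a floor that covers counting error only. Introns took 19.5 to 21.8% of the gene reads in 1mM-PBS, 22.3 to 23.6% in 1uM-PBS, 14.7 to 15.8% in AA and 14.6 to 17.3% in water.

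One library stood apart. In 1uM-PBS r2, 153 genes were at 0 TPM that had at least 5 TPM in both other wells of its set, against 0 to 11 genes in each other library. It had 14932 genes of at least 1 TPM, where the other 11 libraries had 16072 to 17145, and its 50 highest genes took 50.1% of all TPM, against 22.8 to 39.0%. Its rank correlation with r1 and r3 was 0.918 and 0.927, whereas r1 and r3 had 0.984 with each other. Fold changes below that were fitted against 1uM-PBS are therefore mostly given with and without r2, as are the list counts that r2 moved.

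Across the 4 sets, 13327 genes had at least 1 TPM in all 12 libraries (14166 in the 11 without 1uM-PBS r2), of which 12349 are protein-coding and 741 are lncRNA genes. A mean of at least 100 TPM was reached in every set by 1039 genes. The 20 genes with the highest mean were the 13 mitochondrially encoded messages, then TMSB10 and TMSB4X (thymosins, which bind actin monomers), TUBA1A and TUBB2B (tubulins of young neurons), EEF1A1 (translation elongation) and the actins ACTG1 and ACTB. TMSB10 measured 8146, 8564 and 9179 TPM in 1mM-PBS, 5955, 3728 and 6085 in 1uM-PBS, 7675, 6736 and 6832 in AA and 7702, 7457 and 6415 in water. Its lowest value was that of 1uM-PBS r2, and it was not called in any comparison.

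Summed over their lists, genes of cortical neurons and progenitors had more TPM than genes of striatal neurons in every library. The choroid plexus list did too, but its sum rested largely on its member TTR, given below. All 20 pan-neuronal genes (cytoskeletal and synaptic genes of every neuron) had at least 1 TPM in every library, with a median of 183 TPM, and their summed TPM ranged from 4495 to 8234. All 12 genes of cortical and glutamatergic neurons were also at 1 TPM or more in every library, with a median of 117 TPM. Of 30 genes of striatal projection neurons, 23 had a mean of at least 1 TPM in every set and 19 reached it in all 12 libraries, with a median of 5.30 TPM. Summed over the list, striatal genes came to 244 to 538 TPM and the 12 cortical and glutamatergic genes to 1962 to 2959.8 TPM. By RNA, the striatal list was thus expressed in part. The lists differ in size and in the usual levels of their members, so their sums do not give shares of cells. The study based its label on staining for DARPP-32 protein and on quantitative PCR of striatal markers, which were not compared here. In bulk RNA fewer cells of a type and less RNA per cell cannot be told apart.

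Single genes show the same order. NEUROD6, a transcription factor of excitatory cortical neurons, ranged from 541 to 1086 TPM over the 12 libraries, TBR1 (deep-layer cortical neurons) from 126 to 182 and SLC17A7 (vesicular glutamate transporter) from 59.1 to 125. PPP1R1B ranged from 7.70 to 44.7 TPM, BCL11B, a regulator of striatal and deep-layer cortical neurons, from 27.4 to 83.9, and GAD1, which makes GABA, from 5.73 to 32.3. DRD1 ranged from 0 to 2.40 TPM and DRD2 from 2.44 to 9.43. Of 20 genes of the ganglionic eminences and GABA neurons, 15 had a mean of at least 1 TPM in every set and 11 reached it in all 12 libraries. In the same list NKX2-1, LHX6, LHX8 and NKX6-2 stayed under 1 TPM in every library, and the prodynorphin gene PDYN reached at most 1.27 TPM.

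Among other cell types, the 15 progenitor and radial glia genes summed to 2258 to 5118 TPM, and all 15 were at 1 TPM or more in every library. TTR (transthyretin, secreted by choroid plexus) ranged from 503 to 3418 TPM, where its whole list summed to 638 to 3576 TPM. All 8 choroid plexus and roof plate genes were at 1 TPM or more in every library. Microglial genes were near the floor, since all 10 together summed to 0 to 5.65 TPM per library, and the pluripotency genes POU5F1 and NANOG reached at most 1.42 and 0.416 TPM. Of 12 dopaminergic and midbrain genes, PITX3 was at 0 in all 12 libraries and TH (tyrosine hydroxylase) ranged from 1.38 to 8.47 TPM. The plot of summed marker levels shows these lists side by side.

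**Figure D1:**
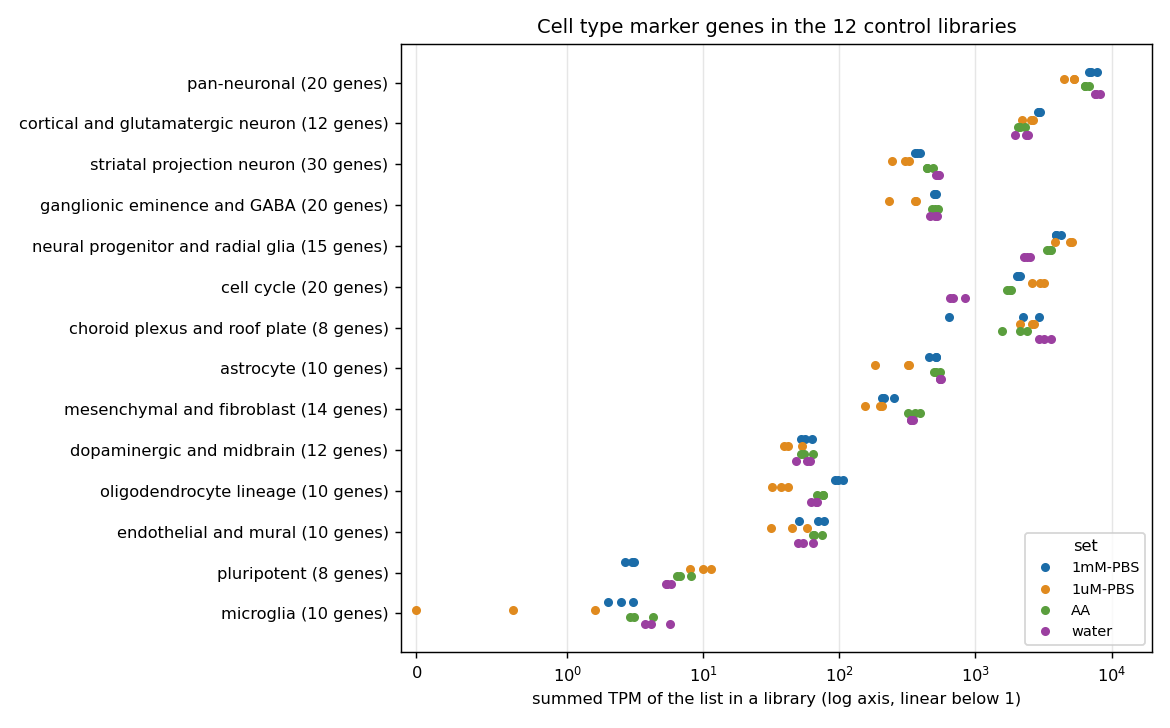
Summed TPM of each cell type list (one row per list, with its number of genes) in each of the 12 control libraries, on a log axis that is linear below 1; each point is a library and colours are the 4 sets. Cortical and glutamatergic genes lie above striatal genes in every library, cell cycle genes are lowest in water (646 to 838 TPM), and the microglial list does not exceed 5.65 TPM.

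Libraries of a set resembled each other more than libraries of other sets, except that 1uM-PBS r1 and r3 were closer to some libraries of other sets than to 1uM-PBS r2. Over 16590 genes of a mean of at least 1 TPM, rank correlations were 0.989 to 0.992 within 1mM-PBS, 0.991 within AA, 0.989 to 0.991 within water and 0.918 to 0.984 within 1uM-PBS, lowest for the pairs with r2. Between sets they were 0.969 to 0.974 for AA and water, 0.956 to 0.964 for 1mM-PBS and AA, 0.936 to 0.950 for 1mM-PBS and water, 0.896 to 0.962 for 1mM-PBS and 1uM-PBS, 0.869 to 0.946 for AA and 1uM-PBS and 0.831 to 0.920 for 1uM-PBS and water. The set accounted for a median of 69.4% of a gene's variance in log2(TPM + 1), and 85.7% without 1uM-PBS r2.

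Exon reads of 16944 genes were compared between sets in one edgeR quasi-likelihood fit of all 12 libraries after TMM normalization, with Benjamini-Hochberg adjustment. A gene was called a DEG where the adjusted p was under 0.05, the log2(fold change) reached 1 in size and the higher set had a mean of 1 TPM or more. Water and 1uM-PBS differed by 3482 DEGs (20.6% of the genes tested), of which 1789 were higher and 1693 lower in water. AA and 1uM-PBS differed by 2372 DEGs (14%), 1287 higher and 1085 lower in AA. Water and 1mM-PBS differed by 1743 (10.3%), 815 higher and 928 lower in water. The PBS sets, which share a vehicle, differed by 1164 (6.87%), 483 higher and 681 lower in 1uM-PBS. A fit of the PBS sets alone gave 682, or 1223 without 1uM-PBS r2. AA and 1mM-PBS differed by 988 (5.83%), 437 higher and 551 lower in AA, and water and AA by 496 (2.93%), 244 higher and 252 lower in water. These 6 comparisons share sets in pairs and are not independent. In all, 4360 genes (25.7%) differed among the sets.

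Without 1uM-PBS r2, 17305 genes were tested, and the counts became 3413 for water against 1uM-PBS (19.7%; 10.2% higher and 9.53% lower) and 2350 for AA against 1uM-PBS (13.6%; 6.93% and 6.65%). Water against 1mM-PBS had 2142 (12.4%; 5.94% and 6.44%), the PBS sets 1287 (7.44%; 3.04% and 4.4%), AA against 1mM-PBS 1418 (8.19%; 3.52% and 4.67%) and water against AA 709 (4.1%; 2.39% and 1.7%). A difference among the sets was called for 4781 genes (27.6%). Between AA and water, sets that do not hold that library, 490 of the 496 DEGs were called again in the same direction. All sets share one estimate of the spread, which that library enters. The plot of DEG counts shows both versions.

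**Figure D2:**
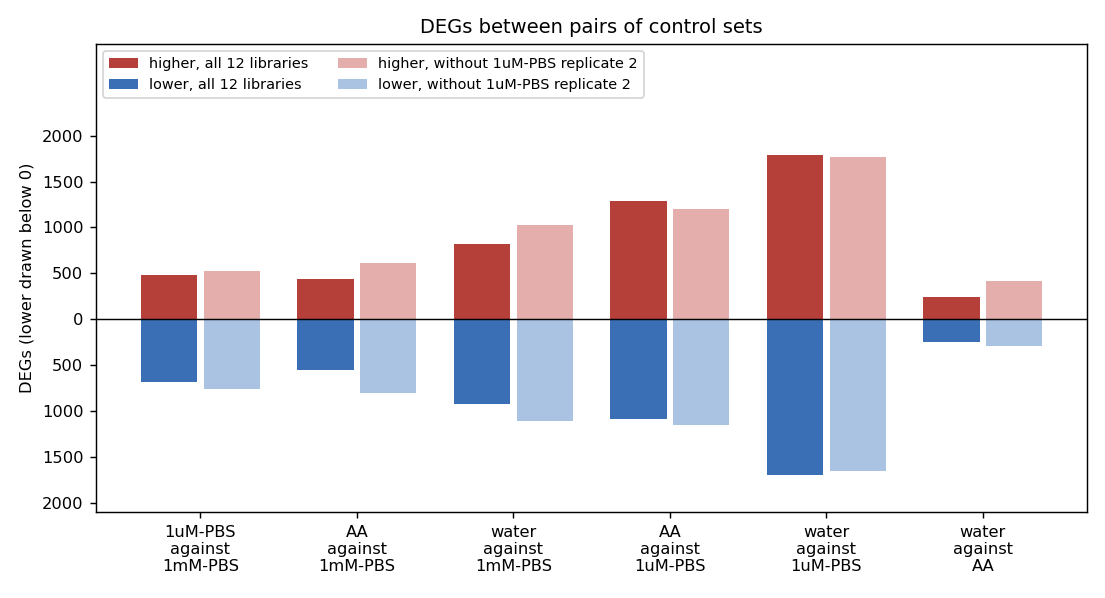
Number of DEGs in each of the 6 comparisons of control sets, drawn upward when higher and downward when lower in the set named first; dark bars are all 12 libraries and light bars the 11 without 1uM-PBS replicate 2. Water against 1uM-PBS has the most DEGs (1789 higher and 1693 lower) and water against AA the fewest (244 and 252).

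Before single genes are compared, the mitochondrial share has to be given, because TPM has a fixed sum. The 13 mitochondrially encoded messages together took 117778 to 128603 TPM per library in 1mM-PBS, 175156, 219229 and 426627 in 1uM-PBS (r2 highest), 245936 to 287401 in AA and 298204 to 307864 in water. All other genes therefore shared less TPM in water than in 1mM-PBS, whereas the fold changes below come from exon reads after TMM normalization. MT-ND1 (a subunit of respiratory complex I) measured 5645, 5774 and 6378 TPM in 1mM-PBS, 10255, 26644 and 13822 in 1uM-PBS, 16079.7, 17529 and 19281 in AA and 22975, 22435 and 23233 in water. Its level in 1mM-PBS was below that of every library of the other sets (water against 1mM-PBS: log2(fold change) 2.23 ± 0.35 (SE), adjusted p = 3.2e-04). Against 1mM-PBS, 13 of 13 messages were higher in water, 11 in AA and 13 in 1uM-PBS, but only 4 in 1uM-PBS without r2, where 4.81%, 2.58% and 2.85% of all tested genes were higher (3.04% without r2). Water and AA did not differ in any of the 13 by the DEG rule.

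The immediate early genes set water apart from the other sets. Of 34 such genes, all tested, 21 were higher in water than in AA, 16 higher than in 1mM-PBS and 20 higher than in 1uM-PBS. None was lower with all libraries, and against 1uM-PBS without r2 20 were higher and 1 lower. Among all tested genes 1.44%, 4.81% and 10.6% were higher in those comparisons. The list's median log2(fold change) was 1.33 against AA and 0.97 against 1mM-PBS, beside -0.02 and -0.01 for all tested genes. Summed over the list, water had 2923, 3121 and 3194 TPM, above every other library, where 1mM-PBS had 1732, 1755 and 1907, 1uM-PBS 1128, 1924 and 2139 and AA 1389, 1401 and 1457.

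EGR1, at the highest level in water of the genes that differed, and NPAS4, the most restricted to neurons among them, are shown with the 250 bases before their start site (RefSeq, GRCh38.p14, plus strand, at chr5:138465229-138465478 and chr11:66420754-66421003), 5′ to 3′, because immediate early promoters are known for sites of the factors CREB and SRF. Capitals mark matches to TGACG or its reverse complement CGTCA, part of the binding site of CREB, and to the CArG box bound by SRF.
EGR1: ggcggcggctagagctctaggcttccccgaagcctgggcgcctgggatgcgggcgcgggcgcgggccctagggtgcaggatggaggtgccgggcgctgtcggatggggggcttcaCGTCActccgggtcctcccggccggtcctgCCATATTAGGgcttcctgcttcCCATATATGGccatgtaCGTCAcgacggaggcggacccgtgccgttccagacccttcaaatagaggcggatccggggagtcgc
NPAS4: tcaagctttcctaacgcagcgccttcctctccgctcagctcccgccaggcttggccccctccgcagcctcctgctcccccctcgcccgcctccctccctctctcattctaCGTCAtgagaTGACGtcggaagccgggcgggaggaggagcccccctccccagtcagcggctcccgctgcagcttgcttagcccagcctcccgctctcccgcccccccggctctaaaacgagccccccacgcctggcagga
A script found CGTCA in EGR1 at bases -135 to -131 and -66 to -62 and CArG boxes at -105 to -96 and -83 to -74, and in NPAS4 the TGACG motif or its complement at -140 to -136 and -130 to -126. TGACG on either strand occurred in this window in 18 of the 26 immediate early genes matched by symbol (69.2%) and in 24.9% of all 27305 symbols. The longer TGACGTCA, which contains TGACG, occurred in 3 of the 26 and in 2.03% of all, and a CArG box in 3 of the 26 and in 1.44% of all. A match is a run of letters and not evidence of binding.

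EGR1 (chr5:138465479-138469303, GRCh38, protein-coding) encodes a zinc finger transcription factor and measured 19.2, 13.9 and 17.8 TPM in 1mM-PBS, 11.5, 6.90 and 11.9 in 1uM-PBS, 27.0, 28.6 and 35.0 in AA and 631, 554 and 637 in water. The 3 water libraries did not overlap any other library (water against AA: log2(fold change) 4.37 ± 0.15 (SE), adjusted p = 9.8e-09). EGR1 was also higher in AA than in 1mM-PBS, at a far smaller fold (log2(fold change) 1.08 ± 0.14 (SE), adjusted p = 2.2e-04), and it fell under the fold threshold without 1mM-PBS r2 (0.95) or AA r3 (0.93). NPAS4 (chr11:66421004-66426707), an activity-dependent factor largely restricted to neurons, measured 0.845, 0.638 and 4.87 TPM in 1mM-PBS, 0.434, 0 and 0.235 in 1uM-PBS, 1.60, 1.86 and 2.94 in AA and 171, 116 and 138 in water. Its water libraries exceeded the highest of the others, 1mM-PBS r3, many times over (water against AA: log2(fold change) 6.09 ± 0.49 (SE), adjusted p = 9.1e-06). FOS, a subunit of the AP-1 factor, measured 16.7, 12.6 and 19.1 TPM in 1mM-PBS, 7.36, 7.73 and 6.19 in 1uM-PBS, 12.6, 12.8 and 13.4 in AA and 279.6, 204 and 230.5 in water. The water libraries again stood clear of all others (log2(fold change) 4.24 ± 0.19 (SE), adjusted p = 1.9e-07 against AA).

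Genes that were close to the floor elsewhere reached 20 TPM or more in most water libraries. EGR4, a zinc finger factor like EGR1, measured 0.333, 0.102 and 0.105 TPM in 1mM-PBS, 0, 0 and 0.170 in 1uM-PBS, 0.116, 0.234 and 0.363 in AA and 21.6, 19.9 and 28.8 in water. FOSB, which pairs with JUN proteins in AP-1, measured 0.332, 0.438 and 0.988 TPM in 1mM-PBS, 0.201, 0.719 and 0.870 in 1uM-PBS, 0.445, 0.400 and 0.777 in AA and 25.7, 23.5 and 25.8 in water. EGR2, of the same family as EGR4, measured 0.357, 0.329 and 0.473 TPM in 1mM-PBS, 0, 0 and 0 in 1uM-PBS, 0.447, 0.377 and 0.312 in AA and 26.0, 24.7 and 28.1 in water. For each of the 3 genes every water library was above every other library, and against AA the log2(fold change) was 6.58, 5.56 and 6.12. EGR2 had 0 reads in 1uM-PBS, so water was at least 264-fold higher there (against 3 reads over the set). EGR3 measured 0.733, 0.579 and 0.545 TPM in 1mM-PBS, 0.222, 1.26 and 0.160 in 1uM-PBS, 1.69, 1.93 and 2.23 in AA and 29.2, 30.5 and 33.9 in water. ARC, a neuronal gene whose protein acts at synapses, measured 12.7, 13.4 and 11.2 TPM in 1mM-PBS, 17.1, 6.78 and 12.6 in 1uM-PBS, 9.17, 8.26 and 8.74 in AA and 60.6, 48.8 and 57.5 in water. Both were higher in water than in all 3 other sets, with a log2(fold change) against AA of 4.04 and 2.72.

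The genes higher in water were not only neuronal ones. CCN1 and CCN2, secreted matricellular proteins of many cell types, had a log2(fold change) of 2.57 and 1.67 against AA, JUNB 2.25, the nuclear receptors NR4A1 and NR4A3 2.30 and 1.92, and the MAP kinase phosphatases DUSP5 and DUSP6 2.12 and 1.30. The remaining called genes were IER2, IER3, SIK1, ZFP36, KLF4 and MAFF, with values between 1.09 and 1.67. The call for KLF4 was lost without AA r1 (1.01), AA r2 (1.09) or water r3 (0.99) and that for SIK1 without AA r1 (1.53). The other 13 members were not called between water and AA. JUN measured 154, 143 and 135 TPM in AA and 168, 153 and 145 in water. IER5 measured 124, 124 and 124 in AA and 84.1, 105 and 93.0 in water, and NR4A2, a nuclear receptor, 14.5, 14.4 and 11.5 and 15.1, 12.2 and 18.2. Genes whose library with the highest TPM was outside water included JUN, JUND, KLF6, NR4A2 and IER5, and also MAFF, which was called.

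**Figure D3:**
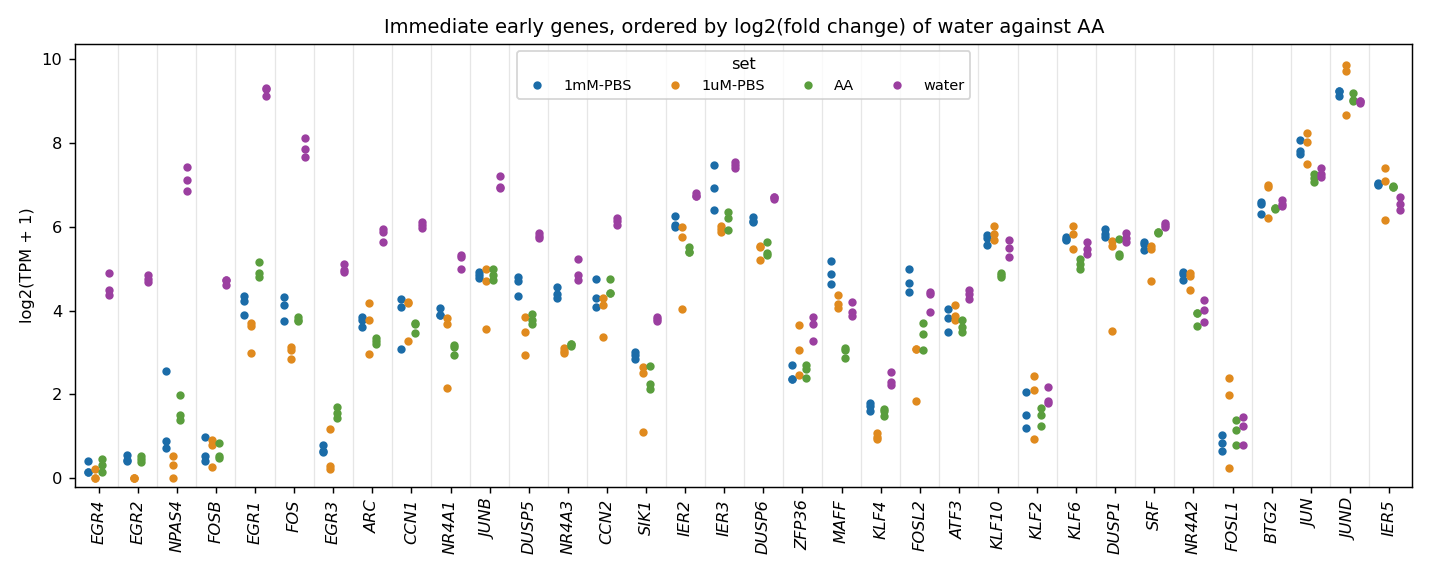
log2(TPM + 1) of the 34 immediate early genes in the 12 libraries, ordered from left to right by the log2(fold change) of water against AA; each point is a library and colours are the sets. From EGR4 to IER2 the 3 water points lie above all others, while from KLF10 rightward they do so for SRF alone.

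Among the other sets, immediate early genes differed little and without one direction. Between 1uM-PBS and 1mM-PBS, 1 of 34 was higher (ZFP36) and 2 were lower (FOSL2 and NR4A3), or 2 and 3 without r2, where 2.85% and 4.02% of all tested genes were called. Between AA and 1mM-PBS, 2 were higher (EGR1 and EGR3) and 3 lower (FOSL2, NR4A3 and MAFF), against 2.58% and 3.25%. MAFF, a small bZIP factor, measured 35.1, 28.3 and 24.0 TPM in 1mM-PBS, 19.6, 16.7 and 15.8 in 1uM-PBS, 6.29, 7.32 and 7.67 in AA and 14.6, 13.6 and 17.4 in water. It was highest in 1mM-PBS, and AA was below every other library.

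Cell cycle genes ran the other way, with water lowest and 1uM-PBS highest. Of 20 genes, 17 were lower in water than in AA, 14 lower than in 1mM-PBS and 19 lower than in 1uM-PBS (19 also without r2), and none was higher; 1.49%, 5.48% and 9.99% of all tested genes were lower. The median log2(fold change) was -1.47, -1.49 and -2.46. In 1uM-PBS, 9 of the 20 were higher than in 1mM-PBS, or 5 without r2. Between AA and 1mM-PBS no member was called. The sum over the list was 2019, 2046 and 2111 TPM in 1mM-PBS, 2624, 2987 and 3178 in 1uM-PBS, 1691, 1794 and 1814 in AA and 646, 688 and 838 in water, with no overlap between any of the sets.

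TOP2A, the topoisomerase that untangles chromosomes before division, measured 289.9, 279 and 291 TPM in 1mM-PBS, 489, 447 and 442 in 1uM-PBS, 226, 229.8 and 209 in AA and 67.5, 69.5 and 98.8 in water. The sets did not overlap, and 1uM-PBS was highest (water against 1uM-PBS: log2(fold change) -2.61 ± 0.14 (SE), adjusted p = 4.9e-08, and -2.44 without r2). MKI67, the gene of the proliferation marker Ki-67, measured 77.4, 73.1 and 82.4 TPM in 1mM-PBS, 164, 196 and 169 in 1uM-PBS, 95.3, 105 and 95.2 in AA and 30.9, 26.2 and 39.3 in water. It was higher in 1uM-PBS than in 1mM-PBS (log2(fold change) 1.55 ± 0.18 (SE), adjusted p = 6.4e-05, and 1.27 without r2), and water was below every other library. The replication genes PCNA, MCM2 and MCM5 were not called between water and 1mM-PBS or AA. PCNA (the clamp that holds DNA polymerase) measured 294, 310.0 and 331 TPM in 1mM-PBS, 207, 148 and 222 in 1uM-PBS, 234, 209.9 and 225 in AA and 129, 164 and 177 in water and was not called in any comparison. Its log2(fold change) was -0.47 for water against AA.

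Progenitor genes followed in part. HES5, a Notch target of dividing progenitors, measured 86.1, 85.2 and 76.7 TPM in 1mM-PBS, 115, 41.7 and 106 in 1uM-PBS, 56.4, 46.0 and 40.8 in AA and 13.0, 16.4 and 12.9 in water. Water was below every other library (log2(fold change) -1.71 ± 0.24 (SE), adjusted p = 4.6e-04 against AA), and 1uM-PBS r2 lay far from r1 and r3. SOX2, which maintains neural stem cells, measured 657, 641 and 587 TPM in 1mM-PBS, 659, 602 and 726 in 1uM-PBS, 531, 532 and 499.9 in AA and 257, 270.3 and 298 in water. VIM (vimentin, of radial glia) measured 1813, 1652 and 1421 TPM in 1mM-PBS, 2375, 1769 and 2463 in 1uM-PBS, 1209.7, 1189 and 1131 in AA and 627, 636 and 669 in water. Both were lowest in water, and the difference from 1uM-PBS passed the rule for both (log2(fold change) -1.32 and -1.81, or -1.21 and -1.78 without r2), while that from AA did not (-0.88 and -0.83). NES (nestin) did not follow, with 256, 219.9 and 244 TPM in 1mM-PBS, 429, 309 and 444 in 1uM-PBS, 483, 495 and 488 in AA and 379, 385 and 393 in water, lowest in 1mM-PBS. Of the 15 progenitor genes 6 were lower and 1 higher in water than in 1uM-PBS (5 and 1 without r2), where 9.99% and 10.6% of all genes were. Against 1mM-PBS 3 were lower (VIM, HES5 and PAX6) and 0 higher, where 5.48% of all genes were lower. With total gene reads 1 was lower and 1 higher there. Against AA 1 was lower (HES5), where 1.49% of all genes were.

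Targets of hypoxia-inducible factors (HIF, transcription factors that accumulate when oxygen is low) were in part higher in 1mM-PBS than in the other sets, and so were some glycolysis genes. Of 22 HIF targets outside glycolysis, 15 were lower in water, 16 lower in AA and 11 lower in 1uM-PBS than in 1mM-PBS, and none was higher. Among all tested genes 5.48%, 3.25% and 4.02% were lower. The median log2(fold change) was -1.73, -1.41 and -1.03, and for 1uM-PBS the count without r2 was 11. Summed TPM was 1894, 2657 and 3553 in 1mM-PBS, 929.6, 1103 and 1244 in 1uM-PBS, 618, 768 and 774 in AA and 586, 613 and 648 in water, so 1mM-PBS did not overlap the others, but its wells spread widely, from r3 (lowest) to r1 (highest).

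DDIT4, whose product restrains mTOR, and CA9, a carbonic anhydrase that is a classic HIF target, are shown with the 250 bases before the start site (RefSeq, GRCh38.p14, plus strand, chr10:72273674-72273923 and chr9:35673678-35673927), with capitals at ACGTG or its reverse complement CACGT, one form of the core that HIF binds. Other forms of that core were not searched or marked.
DDIT4: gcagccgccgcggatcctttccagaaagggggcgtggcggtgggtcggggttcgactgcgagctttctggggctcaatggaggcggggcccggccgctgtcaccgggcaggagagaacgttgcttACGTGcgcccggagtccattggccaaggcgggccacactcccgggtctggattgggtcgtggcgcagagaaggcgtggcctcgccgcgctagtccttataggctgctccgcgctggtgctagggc
CA9: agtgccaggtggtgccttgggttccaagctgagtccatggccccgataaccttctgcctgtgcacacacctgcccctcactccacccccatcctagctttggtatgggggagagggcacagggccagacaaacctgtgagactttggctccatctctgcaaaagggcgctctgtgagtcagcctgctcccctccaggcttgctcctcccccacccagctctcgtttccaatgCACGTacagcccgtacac
DDIT4 holds ACGTG at bases -125 to -121 and CA9 the complement CACGT at -18 to -14. ACGTG on either strand occurred in this window in 12 of 18 HIF targets matched by symbol (66.7%), in 13 of 21 glycolysis genes (61.9%), in 9 of 26 immediate early genes (34.6%) and in 21.7% of all symbols.

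DDIT4 measured 1312, 791 and 537 TPM in 1mM-PBS, 180.2, 119 and 228 in 1uM-PBS, 129, 133 and 95.5 in AA and 42.3, 43.1 and 41.8 in water. The lowest 1mM-PBS library was above all others, and water was below all others (water against 1mM-PBS: log2(fold change) -4.08 ± 0.28 (SE), adjusted p = 9.9e-07). CA9 measured 30.0, 53.8 and 20.6 TPM in 1mM-PBS, 5.32, 0 and 4.26 in 1uM-PBS, 2.56, 1.04 and 1.79 in AA and 0.690, 3.62 and 1.74 in water. Only 1mM-PBS reached 20 TPM (AA against 1mM-PBS: log2(fold change) -4.01 ± 0.70 (SE), adjusted p = 0.0012). ADM, the gene of the vasodilator adrenomedullin, measured 70.8, 38.6 and 16.0 TPM in 1mM-PBS, 1.60, 0 and 1.91 in 1uM-PBS, 1.18, 2.87 and 2.72 in AA and 4.65, 3.90 and 3.15 in water. It differed within 1mM-PBS from r1 to r3, and r3 was still above every library of the other sets (log2(fold change) -4.90 ± 0.67 (SE), adjusted p = 2.1e-04 for 1uM-PBS, and -4.39 (adjusted p = 1.8e-05) without r2).

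VEGFA, the main growth factor for vessels, measured 198, 178 and 114 TPM in 1mM-PBS, 66.7, 52.9 and 78.8 in 1uM-PBS, 23.8, 22.7 and 14.8 in AA and 15.7, 18.8 and 20.0 in water. The PBS sets were both above AA and water (AA against 1uM-PBS: log2(fold change) -1.78 ± 0.20 (SE), adjusted p = 2.7e-05, and -1.77 without r2), and 1uM-PBS was not called against 1mM-PBS (log2(fold change) -0.98). SLC16A3, which exports lactate, and STC2, a secreted glycoprotein, had a log2(fold change) of -3.35 and -3.77 in water against 1mM-PBS. The exceptions were CA12, EGLN1, ERO1A and PPFIA4, none of which was called against 1mM-PBS. ANGPTL4, a regulator of lipoprotein lipase, measured 36.3, 12.5 and 2.92 TPM in 1mM-PBS, 4.66, 0 and 1.46 in 1uM-PBS, 7.54, 12.3 and 10.1 in AA and 13.3, 13.7 and 10.9 in water. It overlapped between 1mM-PBS, AA and water, with the lowest 1mM-PBS well again r3.

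Fewer glycolysis genes were lower outside 1mM-PBS, at smaller folds. Of 22, 9 were lower in AA, 8 in water and 6 in 1uM-PBS, where 3.25%, 5.48% and 4.02% of all genes were. None was higher, and the count for 1uM-PBS was again 6 without r2, where 4.4% of all genes were lower. The summed TPM of the list overlapped, with 8787, 10448 and 10942 in 1mM-PBS, 5229, 8879 and 8881 in 1uM-PBS, 5389 to 6377 in AA and 5122 to 5332 in water. The median log2(fold change) was -0.96, -0.87 and -0.44. The largest folds in water were those of the inducible hexokinase and the glucose transporter. The hexokinase gene HK2 measured 221, 131 and 88.5 TPM in 1mM-PBS, 21.4, 29.1 and 35.0 in 1uM-PBS, 24.3, 26.2 and 17.9 in AA and 12, 9.35 and 14.9 in water (log2(fold change) -3.32 ± 0.33 (SE), adjusted p = 1.0e-05 in water). SLC2A1, which encodes the transporter GLUT1, measured 284, 201 and 97.3 TPM in 1mM-PBS, 48.5, 27.9 and 56.4 in 1uM-PBS, 44.4, 49.5 and 30.1 in AA and 29.9, 27.8 and 27.0 in water (log2(fold change) -2.48 ± 0.31 (SE), adjusted p = 5.5e-05). For both, 1mM-PBS did not overlap the other sets, and r3 was its lowest well. PKM and LDHB, which act at the end of the pathway, had a log2(fold change) of 0.01 and -0.54 in water and were not called.

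**Figure D4:**
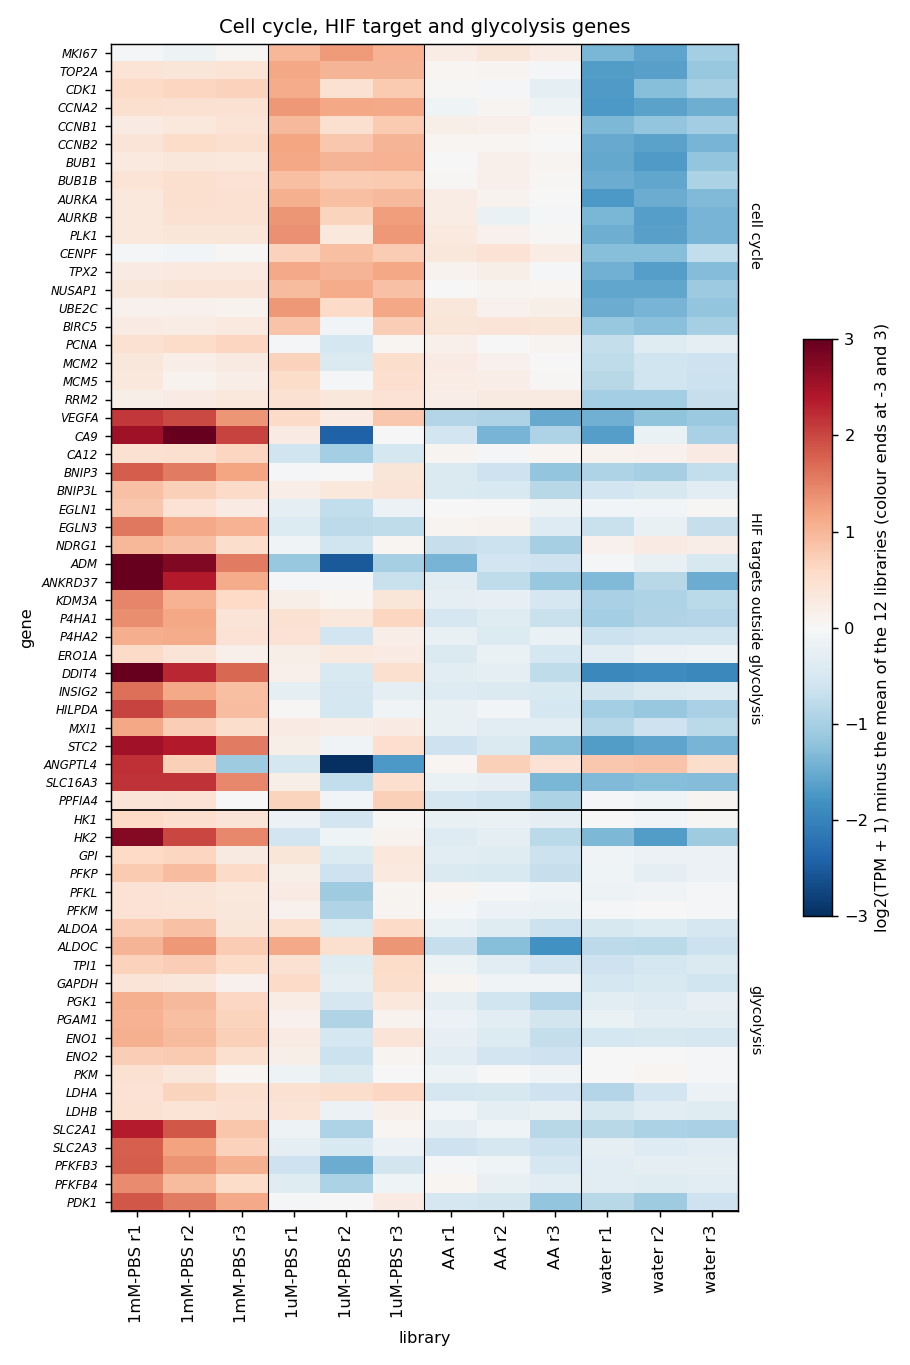
Cell cycle, HIF target and glycolysis genes (rows) in the 12 libraries (columns), coloured by log2(TPM + 1) minus the gene's mean over the 12 libraries, with the colour scale ending at -3 and 3. Apart from PCNA, cell cycle genes are lowest in the water libraries and highest in 1uM-PBS. Most HIF targets are highest in the 3 1mM-PBS libraries, r1 above r3.

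Some genes of the posterior brain were higher in AA and water than in both PBS sets. Of 12 genes of diencephalon, hindbrain and spinal cord, 9 passed the filter on low counts, mostly through the sets in which they were high. IRX3, IRX5, BARHL1, HOXA2, HOXB2 and GBX2 were higher in AA than in 1mM-PBS and higher in water than in 1mM-PBS, and none was called lower. HOXC6, too low to be called, went the other way. Pooled over each set, it had 0.776 TPM in 1mM-PBS, 0.243 TPM in AA and 0 reads in water. The call for BARHL1 in water was lost when any 1mM-PBS library or water r2 or r3 was left out. None of the 9 was called between water and AA, or 1 (lower in water) without 1uM-PBS r2. Of all tested genes 2.58% were higher in AA and 4.81% in water than in 1mM-PBS. Because the filter let the listed genes in mostly where they were high, their count cannot be weighed against those shares.

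IRX3 (chr16:54283304-54286787), a homeobox factor of caudal forebrain to hindbrain, measured 0.449, 0.497 and 0.425 TPM in 1mM-PBS, 0.634, 0 and 0.274 in 1uM-PBS, 8.61, 6.72 and 7.15 in AA and 11.1, 7.27 and 7.61 in water. AA and water lay above every PBS library (AA against 1mM-PBS: log2(fold change) 4.24 ± 0.43 (SE), adjusted p = 4.1e-05). HOXA2, a hindbrain segment gene, measured 0.156, 0 and 0 TPM in 1mM-PBS, 0, 0 and 0 in 1uM-PBS, 7.16, 6.76 and 5.12 in AA and 7.24, 3.26 and 3.52 in water. A single PBS library had any exon read of it, and AA and water had 3 TPM or more throughout. GBX2, which marks the anterior hindbrain and the thalamus, measured 1.58, 1.77 and 3.10 TPM in 1mM-PBS, 0.319, 3.71 and 0.691 in 1uM-PBS, 15.8, 16.0 and 18.0 in AA and 32.5, 29.1 and 25.6 in water. Again neither PBS set overlapped AA or water (water against 1mM-PBS: log2(fold change) 4.03 ± 0.50 (SE), adjusted p = 5.7e-05). The sum of the 12 genes was dominated by OTX2, of forebrain and midbrain, which measured 172, 183 and 132 TPM in 1mM-PBS, 105, 89.0 and 107 in 1uM-PBS, 117, 155 and 140.1 in AA and 101, 104 and 106 in water. It was not called in any comparison.

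Some related genes differed in the same way. LBX1 and TFAP2B were among the genes named for the largest folds between sets, so their values are no separate support. LBX1, of dorsal hindbrain and spinal interneurons, measured 0, 0.0838 and 0 TPM in 1mM-PBS, 0, 0 and 0 in 1uM-PBS, 10.8, 8.34 and 2.48 in AA and 13.3, 2.34 and 4.33 in water. TFAP2B, of neural crest and hindbrain, measured 0.342, 0.395 and 0.284 TPM in 1mM-PBS, 0, 0 and 0 in 1uM-PBS, 9.86, 7.54 and 3.97 in AA and 8.47, 6.15 and 8.16 in water. With 3 reads over 1uM-PBS as the floor, LBX1 was at least 57.5-fold higher in AA and 55.9-fold in water, and TFAP2B at least 120.3-fold and 128-fold. LMX1B, of the isthmus and hindbrain, measured 0.0904, 0.167 and 0.342 TPM in 1mM-PBS, 0.383, 0 and 0 in 1uM-PBS, 4.85, 4.38 and 3.01 in AA and 6.14, 3.27 and 4.61 in water. FOXA1, of the floor plate, measured 0.298, 0.661 and 1.30 TPM in 1mM-PBS, 0.253, 0 and 0.0913 in 1uM-PBS, 4.23, 3.97 and 3.45 in AA and 3.21, 3.88 and 3.48 in water. All 4 were above every PBS library in AA and in water, but wells of one set differed as well, from 2.34 to 13.3 TPM for LBX1 in water.

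EMX2, of the dorsal telencephalon, remained far more abundant in every set than these genes and measured 300.2, 265 and 283 TPM in 1mM-PBS, 422, 495 and 451 in 1uM-PBS, 184, 206 and 188 in AA and 117, 122 and 133 in water. It was highest in 1uM-PBS and lowest in water, without overlap between the sets (water against 1uM-PBS: log2(fold change) -1.96 ± 0.15 (SE), adjusted p = 5.8e-07, and -1.69 without r2). LMO3 (a LIM-only co-regulator) went the other way, with 38.0, 46.8 and 57.9 TPM in 1mM-PBS, 75.5, 86.0 and 78.5 in 1uM-PBS, 70.0, 64.6 and 57.5 in AA and 179.7, 160.5 and 174 in water, highest in water (log2(fold change) 1.47 ± 0.18 (SE), adjusted p = 1.7e-04 against AA).

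**Figure D5:**
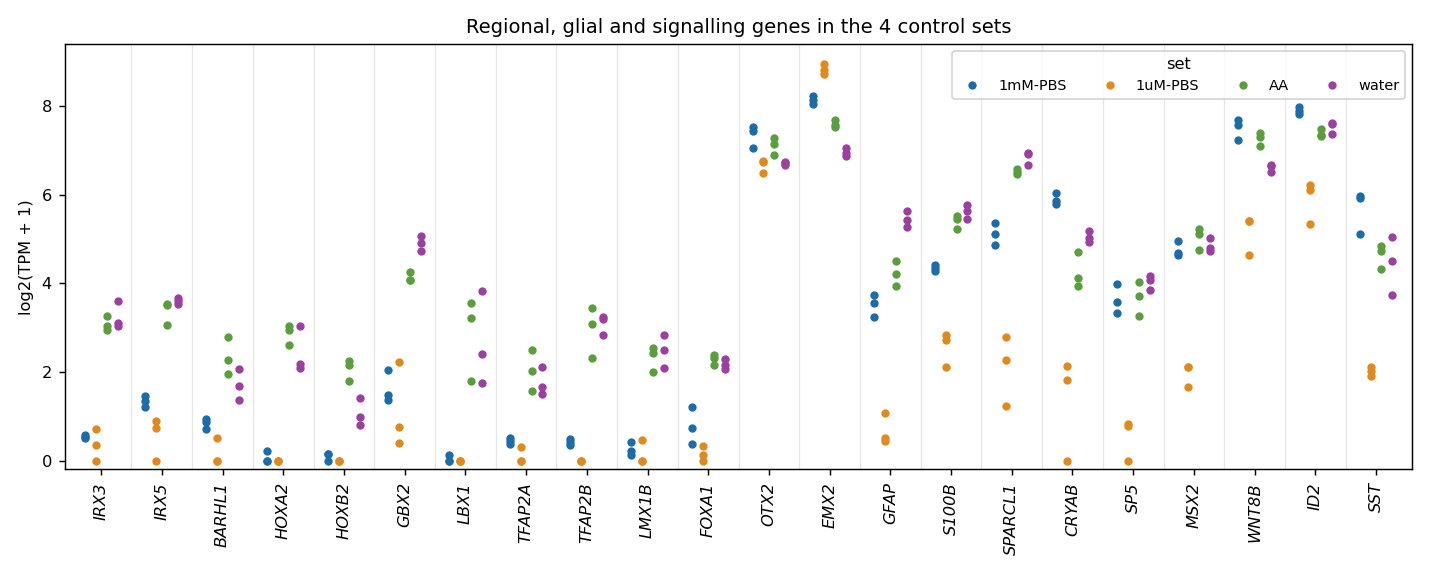
log2(TPM + 1) of regional, glial and signalling genes in the 12 libraries; each point is a library and colours are the sets. From IRX3 to FOXA1 the AA and water points lie above all PBS points, and from GFAP to ID2 the 1uM-PBS points lie below all others.

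Astrocyte genes were lowest in 1uM-PBS. Of 10, all tested, 6 were lower in 1uM-PBS than in 1mM-PBS (GFAP, AQP4, S100B, SPARCL1, CD44 and APOE), or 5 without r2, and none was higher. The call for AQP4 was lost when any library but 1uM-PBS r2 or r3 was left out, and that for APOE with total gene reads or without 1mM-PBS r1, 1mM-PBS r2 or 1uM-PBS r2. Of all tested genes 4.02% were lower. Against 1uM-PBS, 7 were higher in AA and 7 in water, with r2 or without, where 7.6% and 10.6% of all genes were, and ALDOC, which is also a glycolysis gene, was lower. The sum over the list was 183, 321 and 323 TPM in 1uM-PBS and 455 to 514 in 1mM-PBS, 499 to 547 in AA and 549 to 556 in water. GFAP (chr17:44903159-44916937), the intermediate filament of astrocytes, measured 12.4, 10.7 and 8.39 TPM in 1mM-PBS, 0.431, 1.10 and 0.359 in 1uM-PBS, 14.4, 17.6 and 21.8 in AA and 49.0, 37.9 and 41.8 in water. It did not overlap between any neighbouring sets in the order 1uM-PBS, 1mM-PBS, AA and water (1uM-PBS against 1mM-PBS: log2(fold change) -3.65 ± 0.36 (SE), adjusted p = 2.2e-05, without r2 -4.54 (adjusted p = 4.8e-08)). SPARCL1, a secreted astrocyte protein, measured 33.4, 28.4 and 39.9 TPM in 1mM-PBS, 3.85, 1.34 and 5.91 in 1uM-PBS, 87.6, 90.9 and 94.6 in AA and 122, 101 and 119 in water, in the same order of sets. SLC1A2 (a glutamate transporter) did not share the pattern, with 35.2, 32.5 and 38.8 TPM in 1mM-PBS, 36.1, 19.8 and 32.5 in 1uM-PBS, 36.0, 34.7 and 31.7 in AA and 41.1, 40.2 and 45.3 in water and no call.

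Some genes of Wnt and BMP signalling were low in 1uM-PBS, while others were high. Of 35 listed Wnt pathway genes 34 were tested, and 7 were lower and 2 higher in 1uM-PBS than in 1mM-PBS (6 and 2 without r2), where 4.02% and 2.85% of all genes were. In water, 7 were higher and 8 lower than in 1uM-PBS, with r2 or without, where 10.6% and 9.99% of all genes were. Of 28 TGF-beta and BMP genes, tested in the same comparison of the PBS sets with the same background, 7 were lower and 2 higher (5 and 1 without r2). Among ligands and potentiators of Wnt, WNT8B measured 204, 151 and 191 TPM in 1mM-PBS, 41.1, 23.7 and 41.7 in 1uM-PBS, 136, 157 and 167 in AA and 99.1, 90.4 and 101 in water, and every 1uM-PBS library was below every other library (log2(fold change) -2.05 ± 0.14 (SE), adjusted p = 2.5e-06, and -1.96 without r2). SP5, a direct target of Wnt signalling, measured 10.9, 9.02 and 14.8 TPM in 1mM-PBS, 0.717, 0 and 0.777 in 1uM-PBS, 8.60, 15.3 and 12.1 in AA and 13.5, 17.0 and 15.8 in water, and the 1uM-PBS libraries lay below 1 TPM (log2(fold change) -4.25 ± 0.49 (SE), adjusted p = 6.2e-05, without r2 -3.76 (adjusted p = 3.3e-06)). SFRP1, a secreted Wnt inhibitor, was higher in 1uM-PBS than in any other set, with 101, 116 and 124 TPM in 1mM-PBS, 312, 222 and 284 in 1uM-PBS, 110.1, 88.9 and 80.2 in AA and 42.9, 53.9 and 58.5 in water.

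On the BMP side, the ligands BMP4 and BMP6 had a log2(fold change) of -2.01 and -2.31 in 1uM-PBS against 1mM-PBS, or -1.48 and -1.86 without r2 (BMP4 -1.92 and not called without 1mM-PBS r3). The targets ID1 and ID2, inhibitors of neuronal differentiation factors, had -1.26 and -1.69. ID1 fell short of the fold threshold without r2, at -0.90 (adjusted p = 1.9e-05). ID2 measured 237, 225 and 253 TPM in 1mM-PBS, 67.4, 39.4 and 73.5 in 1uM-PBS, 179, 161 and 159 in AA and 164, 197 and 193 in water, with 1uM-PBS below all others (log2(fold change) -1.69 ± 0.12 (SE), adjusted p = 2.9e-06, and -1.59 without r2). MSX2, a roof plate gene that BMP induces, measured 23.9, 24.6 and 30.1 TPM in 1mM-PBS, 3.34, 3.29 and 2.17 in 1uM-PBS, 26.2, 36.7 and 33.9 in AA and 26.7, 25.4 and 31.5 in water and was lowest in 1uM-PBS likewise (log2(fold change) -2.80 ± 0.23 (SE), adjusted p = 7.4e-06, and -3.06 without r2). BMP7, the most abundant BMP of the list, did not differ in any comparison by the rule and ranged from 49.5 to 104 TPM. CRYAB, a small heat shock protein of glia, measured 54.1, 56.6 and 64.7 TPM in 1mM-PBS, 2.54, 0 and 3.40 in 1uM-PBS, 14.5, 16.4 and 25.1 in AA and 31.6, 35.4 and 29.5 in water. It was below all others in 1uM-PBS (log2(fold change) -4.65 ± 0.46 (SE), adjusted p = 2.4e-05, and -4.13 without r2).

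Summed over their list, striatal genes were highest in water and lowest in 1uM-PBS, but not every member followed. The list's median log2(fold change) was 0.60 in water against 1uM-PBS (0.93 without r2), beside 0.02 for all tested genes. In 1uM-PBS against 1mM-PBS it was -0.03 (-0.04 without r2), beside -0.02. Of 30 listed genes 28 were tested, and 11 were higher and 1 lower in water than in 1uM-PBS (13 and 1 without r2), where 10.6% and 9.99% of all genes were. Against 1mM-PBS, 7 were higher in water (PPP1R1B, BCL11B, DRD2, GNAL, RASD2, CHRM1 and CHRM4), where 4.81% of all genes were, and none was lower, though 2 were without 1uM-PBS r2. Against AA, 3 were higher (TAC1, RASD2 and CHRM1), or 5 without 1uM-PBS r2, where 1.44% of all genes were. The summed TPM was 361, 373 and 392 in 1mM-PBS, 244, 301 and 322 in 1uM-PBS, 438, 439 and 491 in AA and 513, 528 and 538 in water, without overlap.

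PPP1R1B (chr17:39626740-39636626) measured 24.5, 21.7 and 20.3 TPM in 1mM-PBS, 7.70, 9.45 and 10.1 in 1uM-PBS, 22.0, 25.0 and 23.4 in AA and 35.7, 44.7 and 39.0 in water. Water was above and 1uM-PBS below every other library (water against 1mM-PBS: log2(fold change) 1.13 ± 0.16 (SE), adjusted p = 1.2e-04), and the difference of water from AA did not pass (log2(fold change) 0.81). DRD2 measured 3.71, 2.60 and 2.60 TPM in 1mM-PBS, 2.44, 3.39 and 3.42 in 1uM-PBS, 4.80, 5.26 and 6.21 in AA and 9.10, 9.43 and 7.54 in water, with no overlap of water with other sets (log2(fold change) 1.84 ± 0.26 (SE), adjusted p = 1.3e-04 against 1mM-PBS). DRD1 measured 2.35, 1.87 and 0.619 TPM in 1mM-PBS, 2.21, 0 and 2.40 in 1uM-PBS, 1.29, 1.03 and 0.285 in AA and 1.58, 1.93 and 1.64 in water, overlapped between all sets and was not called.

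The muscarinic receptor CHRM1 had the largest fold of the list between water and 1mM-PBS (log2(fold change) 3.65). It measured 0.729, 1.12 and 0.614 TPM in 1mM-PBS, 1.49, 0 and 0.991 in 1uM-PBS, 3.38, 1.71 and 2.03 in AA and 9.13, 9.55 and 7.08 in water (log2(fold change) 1.90 ± 0.50 (SE), adjusted p = 0.021 for water against AA). The call against AA was lost when AA r2, AA r3, water r1 or water r2 was left out, at 1.70 to 1.84 on the log2 scale. RASD2, a small G protein enriched in striatum, measured 23.2, 24.9 and 18.5 TPM in 1mM-PBS, 20.0, 16.5 and 17.5 in 1uM-PBS, 22.0, 20.8 and 20.6 in AA and 49.1, 45.9 and 52.0 in water, and the water libraries were again clear of the rest (log2(fold change) 1.26 ± 0.12 (SE), adjusted p = 3.0e-05). Among neuropeptides, TAC1 (substance P) measured 13.7, 10.9 and 11.8 TPM in 1mM-PBS, 3.91, 5.44 and 2.82 in 1uM-PBS, 8.18, 7.47 and 6.05 in AA and 14.7, 12.3 and 15.7 in water. PENK (enkephalin) measured 4.74, 3.65 and 5.37 TPM in 1mM-PBS, 1.10, 1.18 and 1.42 in 1uM-PBS, 3.40, 1.56 and 1.53 in AA and 3.03, 2.00 and 2.57 in water. Both were lowest in 1uM-PBS, with a log2(fold change) against 1mM-PBS of -1.19 and -1.55 (without r2 -1.67 and -1.69, and TAC1 -0.95 and not called without 1uM-PBS r3). The D2-class receptor gene ADORA2A ranged from 0.577 to 5.80 TPM and was not called.

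Some GABA genes were lower in 1uM-PBS as well. GAD1 measured 32.3, 30.2 and 30.4 TPM in 1mM-PBS, 8.08, 5.73 and 7.28 in 1uM-PBS, 14.9, 15.1 and 15.5 in AA and 17.6, 15.7 and 17.7 in water. It was highest in 1mM-PBS and lowest in 1uM-PBS, without overlap (log2(fold change) -1.82 ± 0.09 (SE), adjusted p = 2.0e-07, and -1.84 without r2). SST (somatostatin, of interneurons) measured 33.8, 59.6 and 61.6 TPM in 1mM-PBS, 3.06, 2.74 and 3.32 in 1uM-PBS, 27.6, 25.6 and 18.9 in AA and 32.0, 12.3 and 21.8 in water, and 1uM-PBS was below all others (log2(fold change) -3.74 ± 0.43 (SE), adjusted p = 6.6e-05, without r2 -3.83 (adjusted p = 9.3e-06)). SLC32A1, the vesicular GABA transporter, measured 6.40, 8.00 and 9.58 TPM in 1mM-PBS, 2.77, 0.522 and 3.16 in 1uM-PBS, 14.5, 15.3 and 7.22 in AA and 18.6, 9.64 and 14.0 in water, also lowest in 1uM-PBS. GSX2, a factor of ganglionic eminence progenitors, differed in another way, with 0.590, 1.09 and 0.279 TPM in 1mM-PBS, 4.16, 0.186 and 4.28 in 1uM-PBS, 5.68, 4.04 and 4.83 in AA and 5.28, 4.71 and 2.54 in water, where 1mM-PBS was low together with 1uM-PBS r2. Of 20 listed genes 15 were tested, and in 1uM-PBS 4 were lower (GAD1, SLC32A1, SST and NPY) and 1 higher (GSX2) than in 1mM-PBS, or 4 and 2 without r2, where 4.02% and 2.85% of all genes were. The call for GSX2 was lost without 1mM-PBS r1 or r3 or 1uM-PBS r1 or r3, and those for NPY and SLC32A1 were lost without 1mM-PBS r3.

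Some pan-neuronal genes were higher in water. NEFL and NEFM, the light and medium neurofilaments, were called in water against all 3 other sets, and NEFM measured 141, 131 and 174 TPM in 1mM-PBS, 54.9, 63.7 and 56.1 in 1uM-PBS, 115, 122 and 122 in AA and 319, 241 and 283 in water (log2(fold change) 1.28 ± 0.17 (SE), adjusted p = 3.5e-04). Of 20 pan-neuronal genes 2 were higher in water than in AA, 3 than in 1mM-PBS (with SYN1) and 6 than in 1uM-PBS (6 also without r2), and none was lower, where 1.44%, 4.81% and 10.6% of all genes were higher. TUBB3 and DCX, of young neurons, were not called, and DCX measured 585, 538 and 654 TPM in 1mM-PBS, 537, 416 and 498 in 1uM-PBS, 605, 589.6 and 543 in AA and 631, 591 and 647 in water. Of 22 glutamate receptor genes 6 were higher in water than in 1mM-PBS and none lower, where 4.81% of all genes were higher. With total gene reads 4 were higher, and GRM7 changed sign. GRIK3, a kainate receptor subunit, measured 18.8, 18.9 and 21 TPM in 1mM-PBS, 9.50, 6.02 and 8.86 in 1uM-PBS, 30.0, 31.2 and 29.4 in AA and 70.6, 59.4 and 65.5 in water, highest in water without overlap (log2(fold change) 1.15 ± 0.09 (SE), adjusted p = 6.1e-06 against AA). Of 15 GABA receptor genes none was called between water and 1mM-PBS (1 was lower without 1uM-PBS r2), and of 20 voltage-gated channel genes 3 were higher (CACNA1B, CACNA1D and HCN2), or 4 without 1uM-PBS r2, against the same 4.81%. The call for HCN2 was lost without 1mM-PBS r2.

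Matrix genes separated the sets gene by gene rather than together. COL1A2, a chain of type I collagen, measured 6.16, 6.42 and 9.94 TPM in 1mM-PBS, 47.7, 20.3 and 36.5 in 1uM-PBS, 53.0, 56.6 and 61.6 in AA and 58.6, 58.1 and 57.7 in water, lowest in 1mM-PBS (log2(fold change) 3.17 ± 0.20 (SE), adjusted p = 2.1e-06 for AA). Its partner COL1A1 measured 24.2, 26.1 and 33.6 TPM in 1mM-PBS, 8.64, 3.49 and 7.47 in 1uM-PBS, 22.3, 31.8 and 34.9 in AA and 32.8, 32.0 and 28.1 in water, lowest in 1uM-PBS instead. COL3A1 measured 15.6, 15.4 and 31.9 TPM in 1mM-PBS, 6.55, 2.17 and 6.08 in 1uM-PBS, 78.9, 88.7 and 113 in AA and 96.8, 92.2 and 91.9 in water, high in AA and water and lowest in 1uM-PBS. Of 33 matrix genes 4 were higher and 7 lower in 1uM-PBS than in 1mM-PBS (3 and 7 without r2), where 2.85% and 4.02% of all genes were, and none was called between water and AA. COL6A3 was higher in 1uM-PBS mainly through r2, at 5.25, 46.9 and 14.4 TPM in its 3 libraries, and without r2 the difference from 1mM-PBS was 0.89 (adjusted p = 0.058) on the log2 scale. MMP3, a secreted matrix protease, measured 18.0, 42.7 and 172 TPM in 1mM-PBS, 0.401, 0 and 0 in 1uM-PBS, 0.888, 0.300 and 1.40 in AA and 66.1, 28.1 and 55.1 in water, high in 1mM-PBS and water with a wide spread and near 0 in 1uM-PBS and AA (log2(fold change) 5.87 ± 0.95 (SE), adjusted p = 0.0013 for water against AA).

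Cholesterol synthesis genes, whose transcription rises when cell sterols fall, were in part lower in AA and water than in the PBS sets. Of 22, 10 were lower in AA and 8 in water than in 1uM-PBS, with r2 or without, where 6.4% and 9.99% of all genes were, and none was higher. Against 1mM-PBS 4 were lower in AA and 5 in water, where 3.25% and 5.48% of all genes were. With total gene reads these counts were 2 and 3. HMGCS1, an early enzyme of the pathway, measured 525, 578 and 579 TPM in 1mM-PBS, 780.3, 632 and 667 in 1uM-PBS, 299, 236 and 221 in AA and 302, 333 and 352 in water, with both PBS sets above AA and water (AA against 1uM-PBS: log2(fold change) -1.55 ± 0.12 (SE), adjusted p = 2.4e-06, and -1.45 without r2). In the ATF4 and unfolded protein response list at most 2 of 22 genes were called in one direction in any comparison. Among all tested genes 1.44% to 10.6% were, so the list did not stand out from them.

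Genes that differed from all 3 other sets in one direction numbered 603 of the 16944 tested for 1uM-PBS (3.56%; 1.29% higher and 2.27% lower). They numbered 261 for water (1.54%; 0.561% and 0.98%), 115 for 1mM-PBS (0.679%; 0.431% and 0.248%) and 36 for AA (0.212%; 0.0354% and 0.177%). Without 1uM-PBS r2 they were 629, 332, 178 and 70. For water the genes whose smallest of the 3 folds was largest were EGR4, EGR2, NPAS4, FOSB and EGR1 upward, and AMBN, FAM72D, FAM72B, PIF1 and NEIL3 downward. AMBN (ameloblastin) measured 29.5, 28.4 and 17.1 TPM in 1mM-PBS, 62.4, 63.3 and 49.1 in 1uM-PBS, 7.38, 6.92 and 7.16 in AA and 0.690, 0.644 and 1.74 in water. PIF1 and NEIL3, a helicase and a DNA repair glycosylase of dividing cells, and the FAM72 genes, which are near-identical copies whose reads may be split between them, were low in water too.

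For AA the genes were TAGLN, ALDH1A1 and OLFML3 upward and ALMS1-IT1, TNFAIP8L3, EPCAM, F12 and INPP1 downward. The number itself fell from 36 to 13 without AA r3. The call between water and AA was lost for ALDH1A1 with any library of 1mM-PBS, AA or water left out, for ALMS1-IT1 with any library of AA or water, for F12 with 7 libraries in turn and with total gene reads, and for TAGLN without AA r3 and for OLFML3 without AA r2, AA r3, water r2 or water r3. TAGLN (transgelin, of smooth muscle and fibroblasts) measured 9.85, 10.7 and 6.70 TPM in 1mM-PBS, 7.95, 2.24 and 5.60 in 1uM-PBS, 27.0, 24.5 and 41.1 in AA and 14.4, 12.1 and 10.4 in water (AA against 1mM-PBS: log2(fold change) 2.02 ± 0.29 (SE), adjusted p = 3.2e-04). EPCAM, an epithelial adhesion protein, measured 10.4, 10.5 and 8.83 TPM in 1mM-PBS, 8.57, 9.59 and 8.12 in 1uM-PBS, 3.05, 3.43 and 2.13 in AA and 8.68, 7.32 and 8.33 in water (log2(fold change) -1.54 ± 0.25 (SE), adjusted p = 7.2e-04). For 1uM-PBS the lowest were SYNC, ADGRF4, CLEC19A, MAFA and AC002094.1. SYNC (syncoilin, an intermediate filament protein) had 0 reads in its 3 libraries and was at least 79.6-fold higher in AA. MAFA, a large bZIP factor, measured 11.5, 12.8 and 19.4 TPM in 1mM-PBS, 0.263, 0 and 0.428 in 1uM-PBS, 7.97, 13.2 and 15.1 in AA and 6.28, 12.6 and 12.8 in water (log2(fold change) -5.67 ± 0.59 (SE), adjusted p = 3.1e-05, and -5.19 without r2). The genes highest in 1uM-PBS were GOLGA8H, AC018410.1, AC006042.2, HMGA2-AS1 and AMD1P3, which include copies, pseudogenes and an antisense gene whose counts are uncertain because the strand setting is not given.

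For 1mM-PBS the genes were MTRNR2L12, MTRNR2L8, CA9, ADM and FP236383.3 upward and GP1BB, FAM3C2, EIF3CL, DPPA4 and H3C15 downward. With total gene reads FP236383.3 turned and was higher outside 1mM-PBS, at 2.85, 2.53 and 2.91 on the log2 scale in 1uM-PBS, AA and water. MTRNR2L12, a nuclear copy of the mitochondrial rRNA gene MT-RNR2, measured 95.7, 98.7 and 92.7 TPM in 1mM-PBS, 1.77, 2.54 and 3.46 in 1uM-PBS, 1.31, 1.06 and 1.64 in AA and 0.793, 2.16 and 1.66 in water, and MT-RNR2 itself was listed at 0 in every library. The reads of such copies, and of EIF3CL, FAM3C2 and H3C15, cannot be told apart from those of their relatives here. DPPA4, a chromatin factor of pluripotent and early embryonic cells, measured 0.527, 0.827 and 1.10 TPM in 1mM-PBS, 9.90, 7.93 and 8.79 in 1uM-PBS, 5.60, 7.06 and 4.95 in AA and 5.05, 4.01 and 4.47 in water, lowest in 1mM-PBS (log2(fold change) 3.06 ± 0.25 (SE), adjusted p = 1.2e-05 for AA), while POU5F1, NANOG and LIN28A stayed at or below 1.42 TPM in every library.

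Spread within a set was small apart from 1uM-PBS r2. Among genes with a set mean of at least 5 TPM, the share that lay 1 or more on the log2(TPM + 1) scale from both other wells was 0.0488 to 0.0887% in the AA and water libraries, 0.0936 to 0.406% in 1mM-PBS, 0.261 and 0.490% in 1uM-PBS r3 and r1, and 17.4% in 1uM-PBS r2, where 2041 of 12238 genes were lower and 93 higher. In 1mM-PBS the odd well was r3, with 43 genes lower and 9 higher. TTR measured 1974, 2673 and 503 TPM and AQP1, a water channel of choroid plexus, 98.7, 62.7 and 10.5 TPM in its 3 wells, both lowest in r3. MMP3 ran the other way, highest in r3. Without 1mM-PBS r3 the DEGs between the PBS sets numbered 905 in place of 1164.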

How the data were processed

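The 12 control libraries were taken from per-library tables of gene counts and TPM that the authors deposited. Per the labels and the study's methods, RNA libraries of H9-derived cultures were sequenced on Illumina instruments, and reads were mapped and counted by the authors with CLC Genomics Workbench 21.0.5 against GRCh38 with Ensembl annotation 102. The deposited counts are whole numbers of exon, intron and total reads per gene, and the deposited TPM values rest on the exon reads. The strand setting is not given in the sources used here. Of 60676 genes, 21617 have an exon length of 0 and are listed at 0 TPM, among them RN7SK and MT-RNR2. The 41 treated libraries were not used.

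Exon reads were filtered with filterByExpr (minimum count 10, minimum total 15) and compared in edgeR 4.0.16 (R 4.3.3) with TMM normalization and quasi-likelihood tests, with the set as the only term and p-values adjusted by Benjamini-Hochberg over all genes tested. The DEG rule asked for an adjusted p under 0.05, a log2(fold change) of 1 or more in size and a mean of 1 TPM or more in the higher set. Fitted values shrink toward 0 for genes near the floor, and genes with no read in a set are given by bounds against 3 reads. The code was tested on simulated counts. Alternatives were total gene reads, DESeq2 1.42.0 (test and size factors), no filter, thinning to 9584706 exon reads, the replicate number as a block, only the compared sets, and leaving out each library; those that combine a setting with the removal of 1uM-PBS r2 were added after seeing the data. Gene lists by function and cell type, the 20 highest genes, and the 5 genes in each direction that set a set apart by the largest smallest fold without overlap (mean of at least 5 TPM) were named. The members and lists were chosen with earlier results of these data known. Promoter sequences are from RefSeq (GRCh38.p14). Results of some genes are not reported here.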

Additional observations from a re-analysis of the deposited data

How the results depend on the processing

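Counts of DEGs and of genes that set a set apart were within 1.5 times the reported value in 216 of 229 alternative values, single libraries left out included. Total gene reads gave 264 genes that set 1mM-PBS apart in place of 115, and a fit of the PBS sets alone gave 682 DEGs between them in place of 1164. With 1uM-PBS r2 removed as well, DESeq2 gave 64 genes that set AA apart, and total gene reads gave 55 for AA, 322 for 1mM-PBS and 1719 DEGs between AA and 1mM-PBS; the cause was not tested. Leaving out one library gave 905 (without 1mM-PBS r3) to 1591 (without 1uM-PBS r1) DEGs for 1uM-PBS against 1mM-PBS, 733 to 1418 (without 1uM-PBS r2) for AA against 1mM-PBS, 1412 to 2142 for water against 1mM-PBS, 2043 to 2842 for AA against 1uM-PBS, 3108 to 3970 for water against 1uM-PBS, 375 to 709 for water against AA and 3967 to 4944 for any difference. It gave 93 to 178 (without 1uM-PBS r2) genes for 1mM-PBS apart, 472 to 905 (without 1uM-PBS r1) for 1uM-PBS, 13 (without AA r3) to 70 (without 1uM-PBS r2) for AA, with 21 without AA r2, 20 without water r1 and 21 without water r3, and 209 to 332 for water. With total gene reads, which include introns, the log2(fold change) changed sign for FP236383.3 (2.85, 2.53 and 2.91 in 1uM-PBS, AA and water against 1mM-PBS), ALDH1A1 (-0.57, water against 1mM-PBS), AL136981.4 (0.26, 1uM-PBS against 1mM-PBS), GRM7 (-0.38 in water against 1mM-PBS and -0.30 in AA against 1uM-PBS), BMP5 (-0.94 in AA and -0.43 in water against 1mM-PBS) and BMPR1B (-0.14, 1uM-PBS against 1mM-PBS). Under that setting the median of all genes was -0.155 for water against 1mM-PBS over 23373 genes, where it was -0.01 over 16944. Of 940 calls for named genes, 647 were kept with DESeq2's test, with total gene reads and with each library left out, 283 fell under the rule in at least one of these and 10 changed sign; the other settings were not run for single genes. The replicate numbers did not pair the wells, since same-numbered libraries of different sets had a mean correlation of 0.004 in their deviations and 5 of 12 correlated best with their own number. With the replicate number as a block the counts were 1080, 928, 1675, 2294, 3439 and 469 in the order above, and 4200 for any difference. Depth sets the floor for genes under about 1 TPM, and with 1 experiment per set the vehicle and the culture cannot be told apart.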
